A study of Mus musculus with 21 samples.

Results

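A set of 8 genes were followed across blood progenitors of mice that carry mutant Etv6, which encodes an ETS-family repressor of transcription. They were Cnn3, Cd6, Arpp21, Cmah, Drc7, Camkv, Myo7a and Rasal1. They are 8 of the 11628 genes in the expression table, and 8 of the 13 (0.113% of 11496 genes tested) whose RNA was lower in mutant than in wild-type multipotent progenitors of the MPP4 stage past an adjusted p threshold of 0.05. They were chosen by those MPP4 levels, so the MPP4 comparison is given here as a description with no test. Each gene had 1 row in the table and passed the filter on low values, which asked for 1 RPKM in at least 3 libraries. RPKM counts reads relative to transcript length and to the mapped reads of the library, so levels of different genes can be set side by side per length.

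The 3 bone marrow populations were sorted by flow cytometry, each from 3 wild-type mice and 4 mice homozygous for the Etv6 mutation, which the description writes as h.P214L and the labels as ETV6 mt/mt. Hematopoietic stem cells (HSC) were lineage-negative, cKit+, Sca1+, FLK2-neg, CD150+ and CD38-neg. MPP4 were lineage-negative, cKit+, Sca1+ and FLK2+. The common lymphoid progenitor (CLP) gate took lineage-negative cells, positive for IL7 and Flk2 as the labels spell them, and low for cKit and Sca1. Each wild-type group held 2 libraries from mice 12 weeks old and 1 from a mouse 10 weeks old, with 2 females and 1 male. Each mutant group held 3 females and 1 male. In HSC and MPP4, 3 mutant libraries were from mice 12 weeks old and 1 from a mouse 10 weeks old, and in CLP there were 2 of each age. No treatment is labelled, and neither the strain nor how the allele was made is given in the sources used here. The description calls the 3 and 4 animals separate mice, so the spread between libraries of a group includes that between mice.

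Transcripts of gate markers were compared with the sort. Flt3, which encodes Flk2, was at 14.9 ± 1.91 RPKM (SD, n = 3) in wild-type HSC, 384 ± 33.4 in MPP4 and 366 ± 23.8 in CLP, and Il7r was at 1.06 ± 0.850, 11.6 ± 4.01 and 91.3 ± 3.73. Kit was lower at each step of the same order, at 332 ± 53.9, 151 ± 19.9 and 39.9 ± 7.96 RPKM. Cd38 ran against the sort: its transcript, for which the stem cell gate was negative, averaged 8.39 ± 1.89 RPKM in wild-type HSC and 1.67 ± 0.339 in MPP4. RPKM summed to 337818 to 376135 per library, the median gene lay at 12.0 to 13.6 RPKM, and libraries of a group correlated at 0.968 to 0.990 over genes. Sequencing depth is unknown, because the table holds no counts.

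In bone marrow, multipotent progenitors begin to transcribe lymphoid genes before they lose other fates, a state called lymphoid priming. It is most marked in the FLK2-positive fraction and deepens in the CLP, which can give rise to B, T and natural killer cells and to some dendritic cells. Repressors and activators of the ETS family bind sites built around the core GGAA and act at all of these stages. The name "lymphoid-primed" fitted 7 of the genes, whose RNA was low in HSC and high in CLP. Myo7a fitted it poorly. Its wild-type levels in HSC and CLP overlapped, and it ranked 2375 of 11496 genes by the size of the wild-type rise, against ranks of 4 to 65 for the other 7. The name and the choice of the genes already referred to this rise. Of the 7, 6 passed the low-value filter through MPP4 or CLP alone. The fit and the ranks are therefore a description and no support for the name. The rise is not particular to lymphoid genes: 11 of 12 plasmacytoid dendritic cell genes also had a higher wild-type mean in CLP than in HSC.

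The sequence upstream of 4 of these genes is shown because they span the patterns described below: the most abundant riser (Cnn3), the risers with the next highest CLP levels (Drc7 and Cmah), and the exception (Myo7a). Each line gives the 200 bases from 250 to 51 bases before a RefSeq start listed for the gene (GRCm38.p6), read 5′ to 3′ on the strand of the gene. The RefSeq table lists 2 starts each for Cmah and Myo7a, and the stretch shown is that of the one farther upstream. For Myo7a that start differs from the outer end of the gene span given below, and the stretch lies closer to that end. The stretches lie at chr3:121426291-121426490 (plus strand), chr8:95054853-95055052 (plus), chr13:24327154-24327353 (plus) and chr7:98119544-98119743 (minus). Capitals mark GGAA, or TTCC where the core is on the other strand.
Cnn3: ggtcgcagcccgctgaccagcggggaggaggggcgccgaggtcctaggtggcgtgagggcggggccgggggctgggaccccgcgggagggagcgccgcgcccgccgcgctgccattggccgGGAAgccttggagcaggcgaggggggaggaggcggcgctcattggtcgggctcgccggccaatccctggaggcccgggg
Drc7: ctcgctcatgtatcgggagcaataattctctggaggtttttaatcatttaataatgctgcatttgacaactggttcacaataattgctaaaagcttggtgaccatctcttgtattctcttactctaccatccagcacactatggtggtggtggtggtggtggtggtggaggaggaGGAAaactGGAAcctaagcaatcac
Cmah: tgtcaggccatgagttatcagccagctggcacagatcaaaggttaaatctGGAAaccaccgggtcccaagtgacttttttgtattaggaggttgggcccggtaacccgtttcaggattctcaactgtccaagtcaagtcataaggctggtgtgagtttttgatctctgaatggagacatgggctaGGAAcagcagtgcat
Myo7a: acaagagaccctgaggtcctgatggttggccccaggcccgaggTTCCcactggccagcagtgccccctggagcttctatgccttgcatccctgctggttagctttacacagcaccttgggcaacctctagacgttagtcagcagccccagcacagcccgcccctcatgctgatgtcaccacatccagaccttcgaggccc
The Cnn3 and Myo7a stretches each held 1 core, and those of Drc7 and Cmah held 2 each. At the other start the Cmah and Myo7a stretches held 2 cores each. A core on either strand was found in 89.2% of the 32817 windows of this length in the RefSeq table, with a median of 2 hits, so its presence does not set these genes apart. The longer CGGAAG, which contains GGAA, was in 9.24% of windows and in 0 of the 4. GC content was 79.0% for Cnn3, 43.5% for Drc7, 48.0% for Cmah and 61.0% for Myo7a, around a median of 51.5%. No binding was measured, and a match is a description of letters only. Of the 8 genes, 6 matched the promoter table; Cd6 and Rasal1 did not.

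Among the genes of the cytoskeleton, Cnn3 encodes an actin-binding calponin and lies at chr3:121426541-121458205. In HSC its level was 2.15, 2.04 and 2.76 RPKM in the wild-type libraries and 4.27, 2.98, 2.05 and 1.94 in the mutant ones. In MPP4 it was 75.3, 97.4 and 99.2 RPKM in wild type and 41.3, 46.5, 32.6 and 32.5 in mutant. In CLP it reached 290, 265 and 257 RPKM in wild type and 271, 251, 284 and 284 in mutant. The genotypes overlapped in HSC and in CLP, and in MPP4 every mutant library lay below every wild-type one. The mutant MPP4 mean was 42.2% of the wild-type mean.

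Drc7 encodes a subunit of the nexin-dynein regulatory complex of motile cilia and lies at chr8:95055103-95078141. Its level did not exceed 0.503 RPKM in any HSC library of either genotype. In MPP4 it was 16.4, 19.8 and 28.1 RPKM in wild type and 10.8, 10.4, 9.02 and 9.63 in mutant libraries. In CLP it was 81.8, 106 and 91.6 RPKM in wild type and 77.9, 84.0, 67.2 and 62.2 in mutant libraries. The mutant MPP4 mean was 46.4% of wild type with no overlap, while in CLP the ranges overlapped through 1 mutant library at 84.0 and 1 wild-type library at 81.8 RPKM.

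Myo7a, an unconventional myosin best known from the sensory hair cells of the inner ear, lies at chr7:98051054-98119522 on the minus strand. In HSC its level was 4.84, 7.71 and 6.53 RPKM in wild type and 2.46, 2.71, 3.72 and 3.54 in mutant libraries. In MPP4 it was 7.58, 6.22 and 6.90 RPKM in wild type and 2.59, 2.68, 3.69 and 3.78 in mutant libraries. In CLP it was 9.30, 6.68 and 8.12 RPKM in wild type and 4.68, 4.43, 5.81 and 4.96 in mutant libraries. Every mutant library lay below every wild-type library in each of the 3 populations. The mutant mean was 48.8% of wild type in HSC, 46.1% in MPP4 and 61.9% in CLP. Mutant libraries lay below all wild-type libraries in all 3 populations for 3 of 11496 genes (0.0261%). Myo7a met the MPP4 part of this pattern through the way it was chosen, so the share does not measure its rarity. The other 2 of the 3 genes were Gimap6 and Gimap7, small GTPases of lymphocytes, named because their levels showed this pattern. Gimap7 stood at 52.3%, 46.8% and 51.2% of wild type in HSC, MPP4 and CLP.

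Cd6 and Rasal1 act at the membrane. Cd6, at chr19:10789339-10830062, encodes a scavenger-receptor glycoprotein of T cells that binds ALCAM. Its level in MPP4 was 8.24, 8.19 and 12.7 RPKM in wild type and 3.29, 3.83, 4.32 and 4.07 in mutant libraries, a mean of 39.9% of wild type. The CLP values were 34.0, 32.7 and 37.3 RPKM in wild type and 36.5, 23.4, 27.0 and 27.9 in mutant libraries. The ranges were apart in MPP4 and overlapped in CLP through the first mutant library. In HSC Cd6 did not exceed 0.319 RPKM in any library.

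Rasal1, at chr5:120648040-120679597, encodes a GTPase-activating protein that switches off Ras. Its MPP4 level was 9.47, 8.52 and 9.91 RPKM in wild type and 5.22, 6.16, 2.88 and 4.45 in mutant libraries, and the mutant mean was 50.3% of wild type. Its CLP level was 28.7, 20.2 and 20.6 RPKM in wild type and 28.9, 20.5, 18.8 and 21.4 in mutant libraries. The first CLP library of each genotype was high, and the others of both genotypes lay between 18.8 and 21.4 RPKM. In HSC it was listed at 0 in 1 wild-type library and did not exceed 0.129 RPKM in the others.

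Camkv encodes a kinase-like protein of the calmodulin-dependent family that lacks kinase activity and is found at synapses, and lies at chr9:107935851-107949691. It had the lowest MPP4 level of the 8 genes, 2.54, 3.83 and 5.05 RPKM in wild type and 1.48, 1.59, 1.78 and 0.838 in mutant libraries. The mutant mean was 37.4% of wild type. Levels in CLP were 28.8, 27.6 and 26.4 RPKM in wild type and 24.0, 21.7, 23.0 and 16.2 in mutant libraries. All mutant CLP libraries were below all wild-type ones, a pattern seen here for Camkv and Myo7a, and for 2.18% of all genes in CLP.

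Arpp21, an RNA-binding phosphoprotein first described in brain, lies at chr9:112065091-112236288 on the minus strand. Its MPP4 level was 4.22, 5.21 and 6.10 RPKM in wild type and 2.34, 3.50, 2.86 and 1.52 in mutant libraries, a mean of 49.3% of wild type. The CLP libraries were at 18.4, 18.7 and 16.8 RPKM in wild type and 15.2, 15.1, 19.8 and 14.6 in mutant libraries. The third mutant CLP library was the highest of either genotype and the other three mutant libraries the lowest. Exons of another annotated gene lie on the opposite strand within Arpp21, as also within Cnn3, and without strand in the library such reads cannot be told apart.

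Cmah encodes the hydroxylase that makes the N-glycolyl form of the sialic acid N-acetylneuraminic acid, and lies at chr13:24327404-24477289. Its MPP4 level was 8.61, 9.28 and 13.7 RPKM in wild type and 5.73, 4.01, 3.52 and 4.60 in mutant libraries, a mean of 42.4% of wild type. In CLP it was 45.3, 40.8 and 42.1 RPKM in wild type and 43.7, 32.2, 40.7 and 39.2 in mutant libraries. The groups were apart in MPP4 and overlapped in CLP, where only the second mutant library lay far below the wild-type range.

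**Figure D1:**
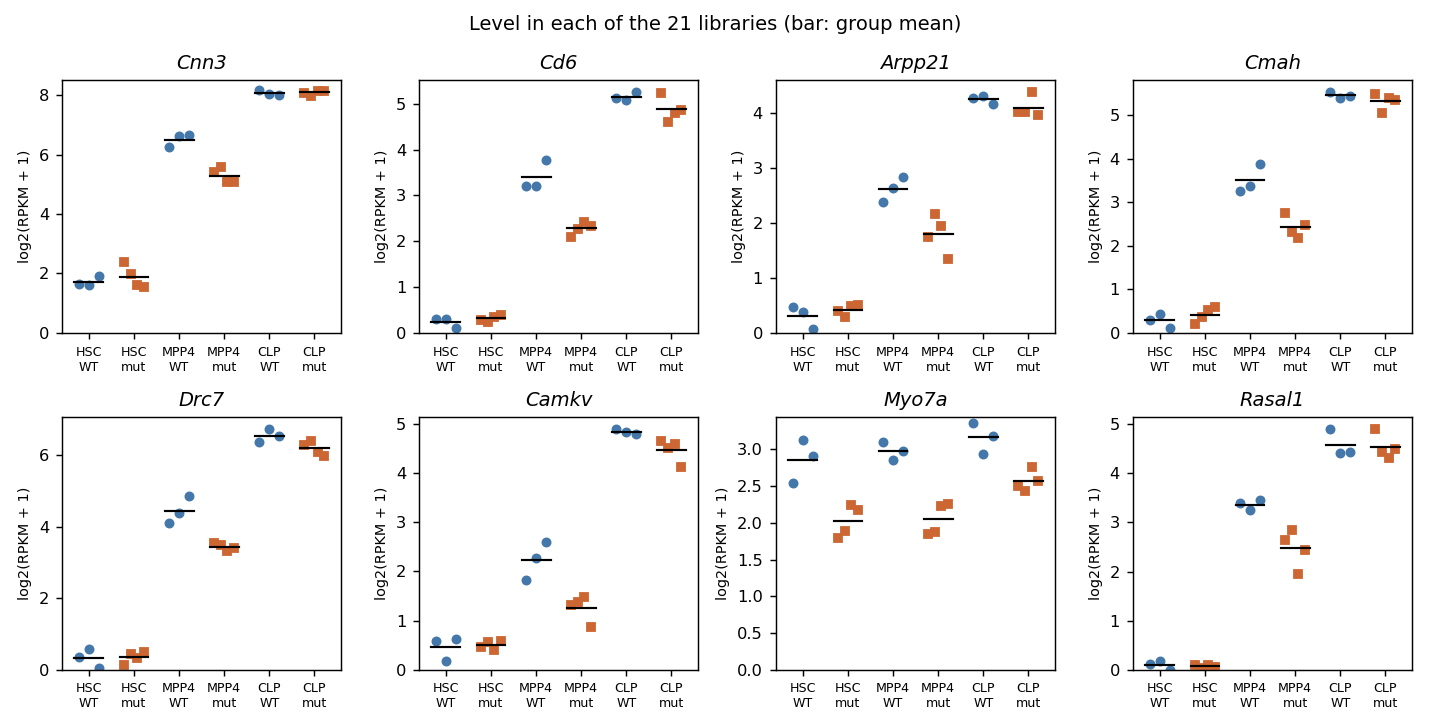
Level of each of the 8 genes in every library (points, log2(RPKM + 1)) by population and genotype, with a bar at the group mean. The 7 risers climb from HSC through MPP4 to CLP in both genotypes, with mutant MPP4 libraries below wild-type ones, whereas Myo7a stays between 2.46 and 9.30 RPKM and is lower in mutant libraries in each population.

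Across the 8 genes, mutant MPP4 levels were 37.4% to 50.3% of wild type, and for all 8 the ranges were apart, which 3.41% of all genes showed with the mutant lower. Both figures follow from how the genes were chosen. Just inside the threshold stood Blnk (adjusted value 0.0413, log2 difference -1.04), Arpp21 (0.0466, -0.82) and Blk (0.0466, -1.18). Just outside it stood Tmem229b (0.0559, -0.67), Rag2 (0.0561, -0.98) and Slc27a1 (0.0561, -0.43). These adjusted values come from the fit in limma with Benjamini-Hochberg adjustment that made the choice, and are given without a test of their own. The third wild-type MPP4 library was the highest of its group for 7 of the 8 genes, while no single mutant library was the highest for more than 3.

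Whether the same genes differed by genotype before and after the MPP4 stage was tested with the HSC and CLP libraries, whose levels the choice did not compare. The choice and these tests shared an estimate of spread for each gene, taken from all 21 libraries. The p-values are therefore not fully independent of the choice. In CLP 0 of the 8 passed (limma, Benjamini-Hochberg adjustment over 11496 genes), as did 0 genes in all (0%). At an unadjusted p under 0.05 there were 3 of the 8 (Drc7, Camkv and Myo7a) and 507 of all genes, or 4.41%. Cnn3 differed by 0.01 on the log2 scale, with a 95% interval of -0.34 to 0.35 (mutant minus wild type). The difference between populations in the effect of genotype was not tested, because it would use the MPP4 values that chose the genes. The CLP interval of Cd6 was -0.59 to 0.03, around a mutant mean of 82.7% of wild type. Drc7 stood at 78.1% (interval -0.69 to -0.02) and Camkv at 76.9% (-0.75 to -0.01). Arpp21, Cmah and Rasal1 stood at 90.2%, 91.2% and 96.8%. Myo7a had the CLP difference farthest from 0, -0.59 (SE 0.16, limma adjusted p = 0.778), with an interval of -0.92 to -0.26.

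In HSC 0 of the 8 passed the same test in limma, against 6 of all genes (0.0522%). At an unadjusted p under 0.05 there was 1 of the 8, Myo7a, and 512 genes in all, or 4.45%. Myo7a was lower by 0.84 in mutant HSC on the log2 scale (difference -0.84, SE 0.16, interval -1.17 to -0.51), with an unadjusted p of 3.85e-05 and a limma adjusted p of 0.0633. It was lower in 4 of 4 mutant libraries, and mutant libraries lay below all wild-type ones for 1.90% of genes. The call turned on processing: over 17 alternatives the adjusted p ran from 0.00617 to 0.549, under the threshold in 5 of them, while the difference stayed between -1.01 and -0.70. Without the first wild-type HSC library it was 0.0253, and without the second it was 0.525. Cnn3, the only other of these genes above 1 RPKM in HSC, differed by 0.17 (SE 0.17). The remaining 6 genes were under 1 RPKM in every HSC library, where log2(RPKM + 1) can show little.

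**Figure D2:**
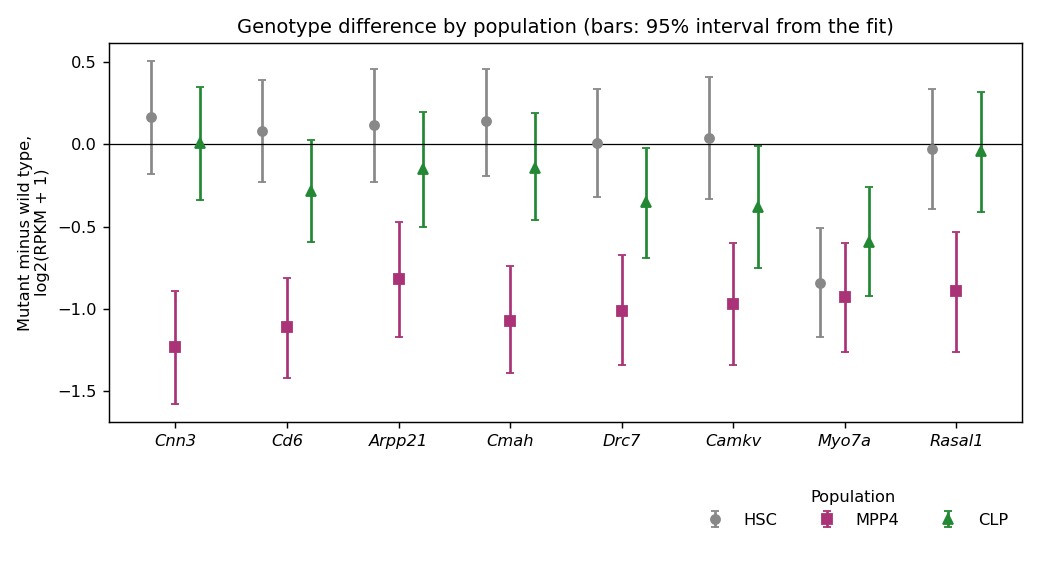
Mutant minus wild-type difference on the log2(RPKM + 1) scale for each gene in HSC, MPP4 and CLP, with 95% intervals from limma. The MPP4 values, which chose the genes, run from -1.23 to -0.82, and the CLP values run from -0.59 for Myo7a to 0.01 for Cnn3.

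The step from HSC to CLP was then compared within the mutant mice and between genotypes. In mutant mice all 8 genes rose (limma, Benjamini-Hochberg adjustment), against 21.8% of all genes called higher. The rises were 6.20 for Cnn3 (SE 0.15, limma adjusted p = 4.1e-17), 5.85 for Drc7, 4.89 for Cmah and 4.56 for Cd6 on the log2 scale. They were 4.46 for Rasal1, 3.96 for Camkv, 3.67 for Arpp21 and 0.55 for Myo7a (limma adjusted p = 0.00325). Of these genes, 6 passed the low-value filter through MPP4 or CLP alone, so a rise was built into their being tested, and their count is no support for it. In wild-type mice the same differences, given as a description, were 6.36, 6.21, 5.16, 4.92, 4.48, 4.37, 3.94 and 0.30 for the genes in that order. The Myo7a value was 0.15 without the first wild-type HSC library, 0.20 without the first wild-type CLP library and 0.53 after quantile normalization. The difference between genotypes in this step passed for 0 of the 8 genes in limma, against 1 of all genes (0.0087%), Gmfg. At an unadjusted p under 0.05 there were 0 of the 8 and 420 of all genes, or 3.65%. The values ran from -0.41 for Camkv to 0.24 for Myo7a. The interval for Cnn3 was -0.65 to 0.33, so a smaller or larger rise within those bounds remains compatible with the data.

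The MPP4 level can also be read as a share of the CLP level of the same genotype. In wild-type mice MPP4 stood at 33.5% of the CLP level for Cnn3, 28.0% for Cd6, 28.9% for Arpp21 and 24.6% for Cmah. In mutant mice the same shares were 14%, 13.5%, 15.8% and 11.5%. For Drc7, Camkv and Rasal1 they were 23.0%, 13.8% and 40.2% in wild type and 13.7%, 6.69% and 20.9% in mutant mice. Among the risers the wild-type share was highest for Rasal1 and lowest for Camkv, and the mutant share was the lower of the pair for each gene. For Myo7a the shares were 85.9% and 64.0%. Each of these shares uses the MPP4 levels that chose the genes and carries no test. Because the population was measured in bulk, fewer cells that express a gene and less RNA per cell cannot be told apart.

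The 7 risers moved together across libraries. Over all 21 libraries, the 21 pairs among them correlated at 0.917 to 0.996 (Pearson, log2 scale), a range set by the differences between populations that they share. The 7 pairs with Myo7a correlated at 0.399 to 0.493. Ranked by correlation with the mean profile of the 8 genes over 21 libraries, the genes nearest to it were Cox6a2 (0.990), Zfp706 (0.987), Blnk (0.986), Unc93b1 (0.985) and Cdkn1a (0.985). Cd93, Selplg, Rag2, Kmo and Ly86 followed at 0.980 to 0.982. In MPP4 the mutant mean was 30.1% of wild type for Cox6a2, 44.4% for Blnk and 47.2% for Rag2. It was 86.9% for Zfp706 and 79.8% for Cd93. The ranking includes the MPP4 libraries, and a correlation ignores the size of the change: from wild-type HSC to CLP the mean of Zfp706 went from 88.5 to 158 RPKM and that of Cox6a2 from 0.413 to 273.

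**Figure D3:**
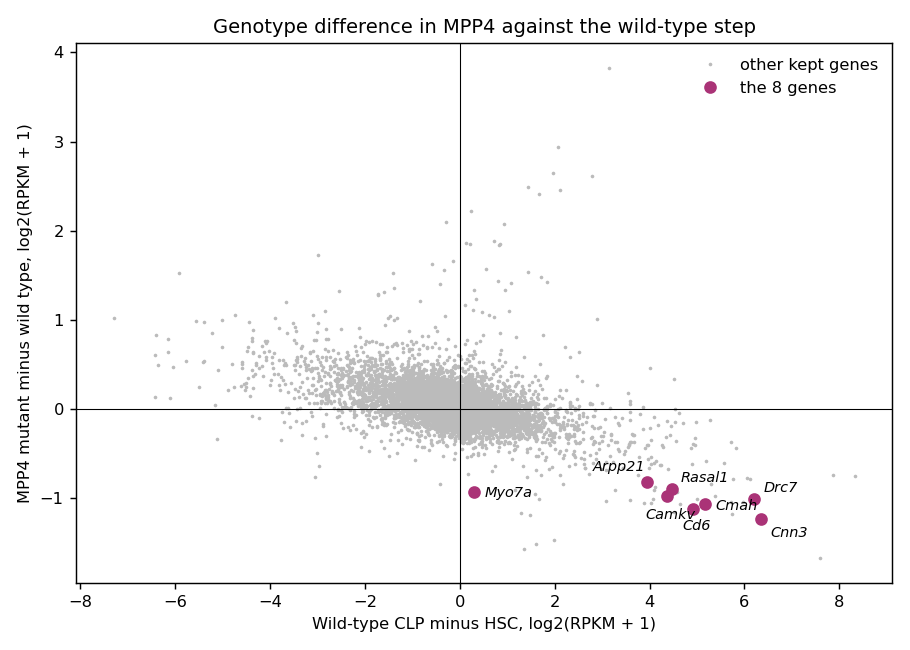
Wild-type difference between CLP and HSC (x axis, log2) against the mutant minus wild-type difference in MPP4 (y axis, log2) for all 11496 genes, with the 8 genes marked. Genes far to the right lie mostly below 0 on the y axis, and Myo7a sits at 0.30 on the x axis, apart from the other 7.

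Other genes that climb from HSC to CLP were examined without these 8. Of 109 genes with a wild-type rise of at least 3 on the log2 scale, 91.7% had a lower mean in mutant MPP4, with a median difference of -0.40, while 44.2% of all genes did, with a median of 0.02. In CLP 65.1% of the 109 were lower, with a median of -0.07, and in HSC 48.6%, with a median of 0.00. For 810 genes with a rise of at least 1 the MPP4 median was -0.14, and for 53 with a rise of at least 4 it was -0.58. The 8 genes, with a median of -0.99, lay beyond those medians, as the way they were chosen requires.

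A list of 42 early lymphoid genes, of which 38 were in the table and kept, gave the wider setting. In the mutant mice 30 of the 38 rose and 2 fell between HSC and CLP (limma), with a median of 2.11, against -0.11 for all genes, of which 21.8% were called higher and 36% lower. Of the 38, 6 (Rag1, Rag2, Ccr9, Ebf1, Igll1 and Vpreb2) passed the filter on low values through MPP4 or CLP alone, so a rise was built into their being tested. The list had 0 genes called by genotype in HSC and 0 in CLP, with medians of -0.01 and -0.05. In MPP4 23 of 38 had a lower mutant mean and 15 a higher one, with a median difference of -0.08 against 0.02 for all genes. Dntt, which encodes the polymerase that adds bases at V(D)J joints, was at 889 ± 149 RPKM (SD, n = 3) in wild-type and 527 ± 50.3 (n = 4) in mutant MPP4, and at 1657 and 1656 in CLP. Rag2, a subunit of the V(D)J recombinase, was at 17.2 ± 5.45 and 8.13 ± 2.05 RPKM in MPP4. Flt3 was at 384 ± 33.4 and 383 ± 17.5 RPKM in MPP4, and Satb1, a chromatin organizer named after its values were seen, at 66.9 ± 11.7 and 59.6 ± 7.92.

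Families and partners of the 8 genes, themselves left out, were read from lists, with calls from limma after Benjamini-Hochberg adjustment. Between mutant HSC and CLP 21.8% of all genes rose and 36% fell. Of calponins and transgelins, Tagln2 fell by 0.47 between mutant HSC and CLP, and Cnn2 differed by -0.17 (limma adjusted p = 0.141), with 124 RPKM in wild-type HSC and 97.8 in wild-type CLP. The only other dynein regulator in the table, Gas8, fell by 0.32 (limma adjusted p = 0.0334). Of 16 unconventional myosins and their partners 3 rose and 6 fell, with Myo1d at -2.68 and Myo1f at 1.09. Of 12 Ras GTPase-activating proteins and relatives 2 rose and 7 fell, led by Rasa4 at 2.89. Of 11 calmodulin-dependent kinases 1 rose, Camk1d at 3.53, and 5 fell.

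Partners of CD6 and related receptors divided, with 4 risen and 5 fallen of 10. Cd5, its closest relative on T cells, rose by 2.75 from under 1 RPKM, and the ligand gene Alcam differed by -0.33 (limma adjusted p = 0.127). Of 20 sialic acid genes 7 rose and 9 fell. Siglech, a receptor of plasmacytoid dendritic cells, rose by 5.6, St6gal1, a sialyltransferase, rose by 3.03, and Cmas, which activates the substrate of CMAH, fell by 0.86. Of 10 relatives of Arpp21 and calmodulin genes 3 rose and 1 fell. In each of these families 0 genes were called by genotype in HSC or in CLP (limma), where 0.0522% and 0% of all genes were.

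Marker lists of other cell types were summed in the same MPP4 libraries. The 20 stem cell genes summed to 206 to 236 RPKM in wild-type and 305 to 339 in mutant MPP4, and the early lymphoid list to 2463 to 2895 and 2046 to 2249, ranges that were apart in both cases. A sum follows its most abundant genes, and Dntt alone went from a mean of 889 to 527 RPKM. The median MPP4 difference of the early lymphoid list was -0.08, with 23 genes lower and 15 higher in the mutant. Of the 20 stem cell genes 19 were higher in the mutant and 1 lower, with a median log2 difference of 0.41 against 0.02 for all genes. Sums of 13 erythroid genes ran from 497 to 3018 RPKM in wild type and from 2268 to 4983 in mutant MPP4. All 13 had a higher mutant mean (median 1.42). Sums of 8 megakaryocyte genes ran from 29.7 to 203 and from 60.1 to 240, with 7 genes higher and 1 lower (median 0.85). Sums of 10 genes matched to the neutrophil list ran from 584 to 1120 and from 760 to 2350, with 6 genes higher and 4 lower (median 1.06). The neutrophil sums count Vamp5, a different gene matched through a synonym to the listed Camp, which was not in the table. The ranges overlapped for 14 genes matched to the B cell list (86.7 to 130 and 67.0 to 95.9), 12 plasmacytoid dendritic cell genes (270 to 324 and 232 to 308) and 9 T and NK cell genes (153 to 190 and 104 to 192). In that order 5, 6 and 1 genes were higher in the mutant and 9, 6 and 8 lower, where 44.2% of all genes were lower. The B cell sums count Ms4a2, a different gene matched through a synonym to the listed Ms4a1, which was not in the table. In MPP4 none of these lists was at 0 throughout, and their part in the lower levels of the 8 genes was not tested. Pf4, a platelet chemokine gene, was at 150 RPKM in the first wild-type and 36.5 in the first mutant MPP4 library, and between 1.10 and 4.39 in the others. Without both of those libraries, an alternative chosen after seeing the data, the 8 genes stood at 31.6% to 51.5% of wild type, which restates the MPP4 values that chose them and is no test.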

How the data were processed

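Per the labels' protocols, RNA of sorted cells went through SMART-seq cDNA synthesis and NexteraXT library construction. The authors deposited 1 table of RPKM values for 21 libraries; STAR and the build mm10 are named, per the submitters' processing notes. The sources used here do not state the counting tool, the strand setting or any scaling between libraries. SMART-seq does not mark strand.

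Of 11628 genes, 132 that reached 1 RPKM in fewer than 3 libraries were removed. log2(RPKM + 1), which understates changes of low genes, was modelled with limma 3.58.1 in R 4.3.3, using 6 group means, a variance trend, 15 residual and 4.62 prior degrees of freedom. Tests were two-sided, with Benjamini-Hochberg adjustment over 11496 genes and a threshold of 0.05, and were tested on simulated data first. They were 4: genotype in HSC, genotype in CLP, mutant CLP against mutant HSC, and the difference between genotypes in that step. The MPP4 comparison and the wild-type step from HSC to CLP are described without a test. Gene symbols turned into dates (16) were restored by Entrez identifier. The members and gene lists were chosen with earlier results of these data known. Named genes were the 8, their nearest 10 genes by correlation with the mean profile, the genes beside the threshold, and leading genes of the lists.

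The labels share replicate numbers. Same-numbered HSC and CLP libraries of a genotype deviated together (correlations 0.103 to 0.481, above 0.1 in 7 of 7 pairs, highest with the own number in 6), and the fits with a block read the numbers as pairing them. The exception, mutant number 4 (0.103), is labelled 10 weeks old in CLP and 12 weeks in HSC, so its libraries are not from 1 mouse at 1 age if both labels hold. Across genotypes they are different mice, yet same-numbered libraries of the other genotype correlated at -0.155 to 0.433 in HSC and 0.036 to 0.453 in CLP. Libraries with the same number also shared sex. Correlations of this size therefore do not by themselves show that same-numbered libraries came from the same mouse.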

Additional observations from a re-analysis of the deposited data

Results flagged for a closer look

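Arpp21 in mutant CLP was set apart by 1 library. The third mutant library, at 19.8 RPKM, lay above the other three, which were at 14.6 to 15.2 RPKM, and the gap was 0.873 of the range of the group, above Dixon's critical value for 4 samples. Among 24 groups of 4 libraries examined (8 genes in 3 mutant populations) this was 1, and chance alone sets about 1 in 20 such groups apart.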

How the results depend on the processing

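The mutant rise from HSC to CLP kept its direction and its call for all 8 genes under each of 18 alternatives, with 6173 to 7166 genes called in all. The number of genes called by genotype in HSC was 6, and was 12 after quantile normalization, 0 when the compared groups were fitted alone, 21 with library weights and 2 to 7 without single libraries (3 without the second and 2 without the third wild-type one). Of the 8 genes 0 were called there, and 1 (Myo7a) with median-ratio scaling, quantile normalization, library weights or the number as a fixed replicate block, and 0 to 1 without single libraries. In CLP 0 genes were called, and up to 5 without the second mutant library. The difference between genotypes in the step was called for 1 gene, for 0 with compared groups alone or library weights, for 3 with the mouse as a random block and 2 with the number as a fixed block, and for 0 to 3 without single libraries. The replicate block changed no other call of these 8 genes, and Myo7a in HSC had a limma adjusted p of 0.0612 with the random block and 0.0282 with the fixed one.

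Differences near 0 changed sign without being called. In HSC quantile normalization gave -0.04 for Cd6, -0.02 for Cmah, -0.06 for Camkv, -0.07 for Drc7 and -0.001 for Arpp21, and library weights gave -0.12 for Drc7. Without single HSC libraries the range was -0.08 to 0.01 for Rasal1, -0.11 to 0.12 for Camkv, -0.13 to 0.14 for Drc7, -0.003 to 0.28 for Cnn3 and -0.002 to 0.20 for Arpp21. In CLP Cnn3 was at -0.05 after quantile normalization, and without single libraries Cnn3 ran from -0.03 to 0.06 and Rasal1 from -0.17 to 0.11. The Rasal1 difference in the step was 0.06 with a pseudocount of 0.1, 0.001 with 0.5, 0.01 after quantile normalization, 0.01 with library weights and 0.05 with sex and age terms. Without single libraries it ran from -0.14 to 0.14, and that of Cnn3 from -0.27 to 0.01. The cause was not tested. Of 128 alternative values of the wild-type rise, given as a description, 14 moved by more than the spread between replicates. Depth is unknown, so no counting error can be given for levels under 1 RPKM.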

Other observations

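Of the 13 genes lower in mutant MPP4, the other 5 were Cox6a2, Irf8, Blnk, Blk and Unc93b1, which include regulators of B cells and dendritic cells. All 5 rose between mutant HSC and CLP (limma, Benjamini-Hochberg adjustment), with a median of 5.72 on the log2 scale, where 21.8% of all genes were called higher. Cox6a2 and Blk passed the filter on low values through MPP4 or CLP alone, so a rise was built into their being tested. The 5 had 0 genes called by genotype in HSC and 0 in CLP, with medians of -0.10 and -0.18. Single genes lay farther from 0. In CLP Blk stood at 47.3% of wild type (log2 difference -0.99, interval -1.49 to -0.49). In HSC Irf8 stood at 55.9% (-0.53, interval -0.85 to -0.22). The ranges were apart for both and for Blnk in CLP (79.3%), and overlapped for the rest. Such ranges with the mutant lower were seen for 1.90% of all genes in HSC and 2.18% in CLP.

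In CLP 48.7% of all genes had a lower mutant mean. The share was 65.1% of the 109 genes with a wild-type rise of at least 3 on the log2 scale, and 75.5% of the 53 with at least 4. All 14 genes matched to the B cell list, whose median wild-type rise was 3.78, had a lower mutant mean there, and 0 of them were called (limma). Their median difference was -0.56, against 0.00 for all genes. They include Ms4a2, a different gene that was matched through a synonym to the listed Ms4a1, which was not in the table. It counts in this median and in the sums. Their sums ran from 531 to 727 RPKM in wild-type and from 282 to 700 in mutant libraries, which overlap through the second mutant library.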
